A study of Mus musculus with 8 samples.

Results

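The mouse defensin genes were followed through 5-hydroxymethylcytosine (5hmC) profiles of fibroblasts on the way to neurons. Members were all genes whose symbol begins with Defa (alpha-defensins) or Defb (beta-defensins) in the deposited promoter and peak lists, which gave 52 of 21604 gene names, 10 alpha and 42 beta. RefSeq (GRCm38.p6, the assembly of mm10) holds 74 defensin genes with a curated transcript, 31 alpha and 43 beta, of 26220 such genes in all. Another 8 symbols in the files are older names that the rule does not take (Gm14851, now Defa38, and Gm15315, now Defa34, are the 2 of them in a promoter list), and 15 RefSeq defensins appeared under no symbol.

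The tested libraries were induced neurons at 1, 3, 5 and 7 dpi (as the labels write it), made from mouse embryonic fibroblasts (MEFs) and kept in neuronal medium, and primary neurons derived from the hippocampus of 1-day-old pups. Each was set against MEFs from E13.5 embryos, and all cells were of the ICR strain at 3 to 5 passages. How the conversion was induced is not given in the sources used here. Each group had 1 hydroxymethylated DNA immunoprecipitation (hMeDIP) library, so no difference has a replicate check, no test over samples was possible, and all 5 comparisons share the MEF library. The data are of a DNA mark and give no expression, so the labelled cell types could not be checked by their transcripts. In the promoter lists of the mark, of Rbfox3, Tubb3, Map2 and Syn1 only Tubb3 was hyper, at 1 dpi, and none was hypo. Of the fibroblast markers Col1a1, Col1a2, Thy1 and Pdgfra, Pdgfra was hypo in all 5 comparisons and Col1a2 in all but that of 5 dpi. Thy1 was hyper at 1, 3 and 7 dpi. MEF peaks named all 4 fibroblast markers and also Map2, Rbfox3 and Syn1. Outside MEFs, Rbfox3 alone of these markers carried peaks, in every tested library except that of 1 dpi.

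Defensins are small cationic peptides, held together by disulphide bonds, that damage microbial membranes. In the mouse, alpha-defensins are made mainly by Paneth cells of the small intestine, and beta-defensins by epithelia, with many of them in the epididymis and other parts of the male tract. Their genes lie in clusters that grew by duplication, with near-identical copies among the alpha genes. 5hmC is the oxidised form of 5-methylcytosine made by the TET enzymes, is found mostly at CpG dinucleotides, and is abundant in mature neurons.

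The start sites of these genes hold few CpGs, the usual site of the mark. RefSeq gave 46 windows from 250 bases before to 50 after a start for 45 defensin genes, with a median of 1 CpG per window, against 7 in the 32851 windows of all genes. No CpG was present in 15.2% of defensin windows and in 5.43% of all windows, and no defensin window held more than 8. The letters TATAAA, searched on both strands, were in 15 of 16 alpha windows and 5 of 30 beta windows, and in 13.6% of all windows of this length. The other defensin genes had no window, and of those Defb50, Defa25, Defb12, Defb25 and the pseudogene Defa-ps12 had a hypo region over their start. The 6 windows below are, in the order printed, the 4 of these 46 that a listed region reached (Defb13, Defb28, Defb23, Defb6) and the first alpha and the first beta gene by name (Defa2, Defb10), 5′ to 3′ on the gene's strand with CpG in capitals.
Defb13: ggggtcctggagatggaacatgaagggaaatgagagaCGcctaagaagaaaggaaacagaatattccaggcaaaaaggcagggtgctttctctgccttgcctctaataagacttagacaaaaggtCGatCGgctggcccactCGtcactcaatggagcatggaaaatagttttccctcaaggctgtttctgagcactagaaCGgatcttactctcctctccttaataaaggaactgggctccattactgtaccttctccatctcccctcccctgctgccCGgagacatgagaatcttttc
Defb28: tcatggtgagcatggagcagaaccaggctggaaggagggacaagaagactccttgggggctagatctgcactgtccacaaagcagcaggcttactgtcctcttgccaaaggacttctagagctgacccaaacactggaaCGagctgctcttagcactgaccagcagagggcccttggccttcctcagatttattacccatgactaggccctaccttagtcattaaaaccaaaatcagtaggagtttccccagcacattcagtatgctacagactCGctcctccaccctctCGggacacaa
Defb23: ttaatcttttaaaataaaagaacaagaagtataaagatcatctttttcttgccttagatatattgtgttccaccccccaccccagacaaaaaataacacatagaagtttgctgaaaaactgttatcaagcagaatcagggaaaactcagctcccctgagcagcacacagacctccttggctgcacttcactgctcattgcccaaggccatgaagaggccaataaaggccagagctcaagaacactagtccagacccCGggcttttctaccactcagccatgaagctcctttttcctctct
Defb6: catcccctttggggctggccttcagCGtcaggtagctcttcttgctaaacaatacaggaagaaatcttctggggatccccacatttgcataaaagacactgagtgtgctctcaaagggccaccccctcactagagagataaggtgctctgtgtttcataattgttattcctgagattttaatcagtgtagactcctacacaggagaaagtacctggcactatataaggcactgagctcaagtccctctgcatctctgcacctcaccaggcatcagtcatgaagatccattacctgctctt
Defa2: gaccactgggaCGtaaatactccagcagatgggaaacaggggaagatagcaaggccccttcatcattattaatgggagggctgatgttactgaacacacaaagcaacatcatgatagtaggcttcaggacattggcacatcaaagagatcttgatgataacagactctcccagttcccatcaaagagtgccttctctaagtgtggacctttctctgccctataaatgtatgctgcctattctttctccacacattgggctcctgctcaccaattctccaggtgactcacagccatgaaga
Defb10: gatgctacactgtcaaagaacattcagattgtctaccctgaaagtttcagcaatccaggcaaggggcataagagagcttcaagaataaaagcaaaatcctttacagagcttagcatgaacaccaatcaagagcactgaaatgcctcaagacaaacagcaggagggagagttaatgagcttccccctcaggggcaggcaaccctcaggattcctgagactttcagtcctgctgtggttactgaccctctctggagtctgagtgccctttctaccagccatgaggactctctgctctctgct

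In GRCm38.p6 these windows are chr8:21946505-21946804 (plus strand) for Defb13, chr2:152518005-152518304 (plus) for Defb28, chr2:152464571-152464870 (minus) for Defb23, chr8:19225228-19225527 (plus) for Defb6, chr8:21378267-21378566 (plus) for Defa2 and chr8:21858651-21858950 (plus) for Defb10. Defb13, with 6 CpGs, had a hypo region over 116 bases of its window in all comparisons but that of 3 dpi, where it covered 76, and 1 CpG lay in the shared stretch each time. Defb28 had 3 CpGs, and hypo regions at 1 and 3 dpi shared 64 bases and 2 CpGs with its window. Defb23 had 1 CpG, inside the 190 bases shared with a hyper region at 1 dpi. Defb6 had 1 CpG, outside the 167 bases shared with a hyper region at 5 dpi. Defa2 has 1 CpG, Defb10 has 0, and neither window was reached by a listed region.

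**Figure D1:**
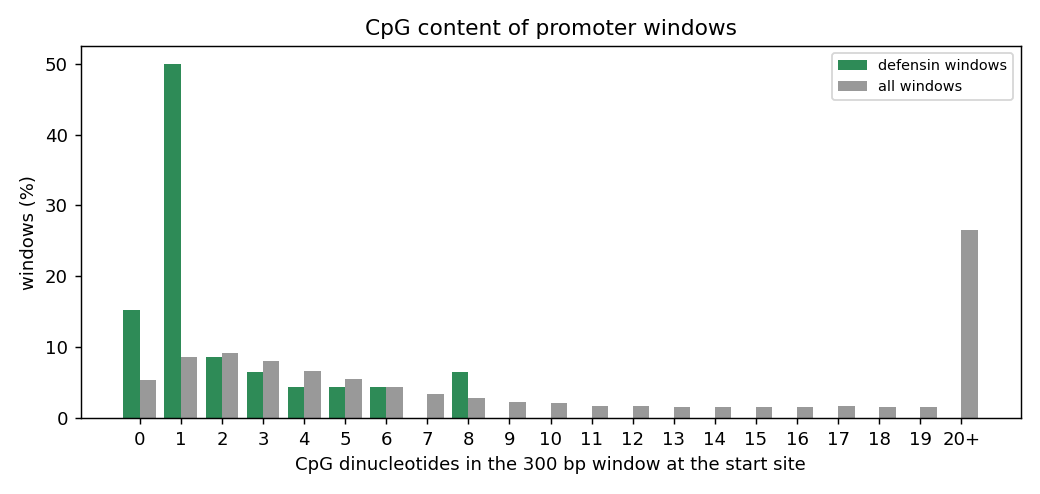
CpG dinucleotides (x axis, per window of 300 bp at the start site) against the share of windows (y axis, %), for defensin windows and for the windows of all genes. Of the defensin windows 50% hold exactly 1 CpG, whereas 26.5% of all windows hold 20 or more.

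The authors listed promoter regions, within 2000 bp of a transcription start site (TSS), as hyper where a library had more reads than MEFs and hypo where it had fewer. A read of a tested library counts for 1.75 to 1.80 MEF reads, the authors' scaling. Of the 52 defensin symbols, 42 were in at least 1 promoter list (4 alpha, 38 beta). Another 10 had a peak only, among them Defa21, Defa26, Defb1, Defb39 and Defb41. Of these 10, Defa23 and Defa-rs7 share the same 4 peaks at near-identical copies and are uncertain.

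Hyper regions named 11 defensin genes at 1 dpi (all genes, 11.7%), 13 at 3 dpi (10.9%), 11 at 5 dpi (16.9%), 6 at 7 dpi (7.45%) and 3 in primary neurons (7.41%). Hypo regions named 26 at 1 dpi (all genes, 36.6%), 28 at 3 dpi (34.2%), 26 at 5 dpi (34%), 25 at 7 dpi (34.2%) and 28 in primary neurons (34.7%). With older symbols added, the share of the 74 defensins that was hyper was 14.9%, 17.6%, 14.9%, 9.46% and 4.05% in the same order, and the hypo share 36.5%, 39.2%, 35.1%, 35.1% and 39.2%. The exact Clopper-Pearson 95% interval of each of these shares, which covers counting error only, contains the share of all genes. With alpha and beta genes pooled, these counts therefore give no result particular to the defensins in either direction. The intervals treat the genes as independent, although they lie in clusters. In primary neurons, for example, the interval of the hyper share was 0.844% to 11.4%. Some defensin genes were in both lists at once, through separate regions or regions that partly overlap. These were 7 genes at 1 dpi, 8 at 3 dpi, 4 at 5 dpi, 1 at 7 dpi and 0 in primary neurons. The share of all genes in both lists was not counted, so these numbers give no result particular to the defensins.

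**Figure D2:**
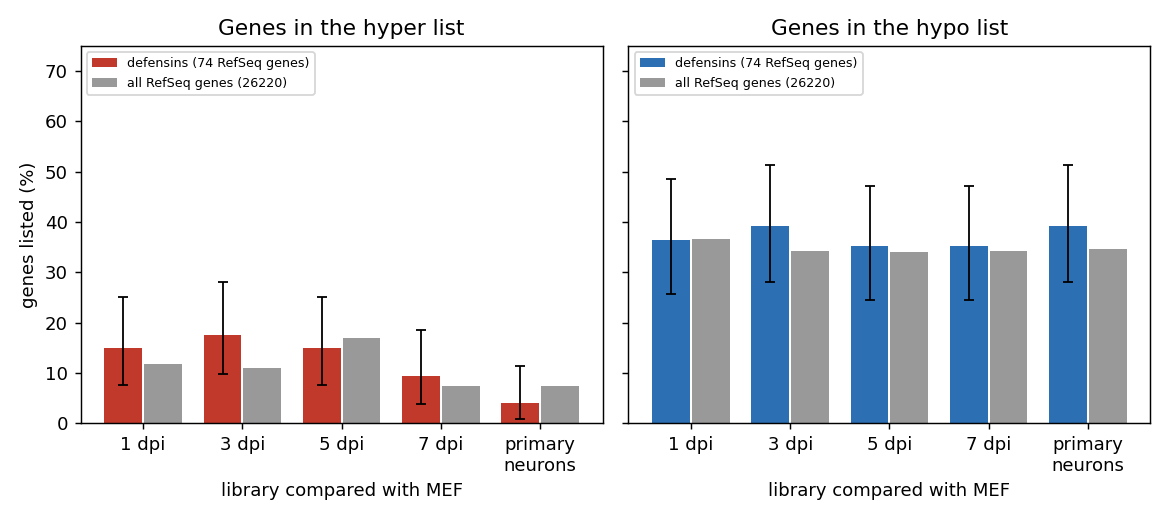
Share of genes (y axis, %) in the hyper list (left panel) and the hypo list (right panel) of each library against MEF (x axis). Coloured bars are defensins, older symbols included, with exact 95% intervals, and grey bars are all RefSeq genes. All intervals span the grey bar beside them.

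Beta genes were listed more often than alpha genes, a difference for which no test was possible. Hypo regions named 24, 26, 23, 22 and 26 of 43 beta genes at 1, 3, 5 and 7 dpi and in primary neurons, against 3, 3, 3, 4 and 3 of 31 alpha genes with older symbols added (2, 2, 3, 3 and 2 without). The beta hypo shares were 55.8%, 60.5%, 53.5%, 51.2% and 60.5%, against 36.6%, 34.2%, 34%, 34.2% and 34.7% of all genes. The alpha hypo shares without older symbols were 6.45%, 6.45%, 9.68%, 9.68% and 6.45%. Hyper regions named 9, 11, 10, 6 and 3 beta genes and 2, 2, 1, 1 and 0 alpha genes with older symbols added (2, 2, 1, 0 and 0 without). The beta hyper shares were 20.9%, 25.6%, 23.3%, 14% and 6.98%, against 11.7%, 10.9%, 16.9%, 7.45% and 7.41% of all genes. The alpha hyper shares without older symbols were 6.45%, 6.45%, 3.23%, 0% and 0%. The alpha genes of the lists were Defa25, Defa24, Defa17 and the pseudogene Defa-ps12 and, under older symbols, Gm15315 (Defa34) and Gm14851 (Defa38). In any of the 10 promoter lists stood 58.7% of all genes. By position, all 11 genes of the chromosome 2 cluster, all 5 on chromosome 14, 8 of 9 in the distal beta cluster on chromosome 8 and 13 of 16 in the proximal one were in some list. In the stretch between those, which holds the alpha genes and Defb33, 4 of 30 were (6 with older symbols), and on chromosome 1 only Defb18 of 3. MEF peaks were sparser in the alpha stretch too, at 35.6 per Mb against 68.4 over the whole of chromosome 8. The proximal and distal beta clusters had 72.7 and 75.6 per Mb. Sparser peaks were not particular to the alpha stretch. The chromosome 14 cluster, with all 5 genes listed, had 42.2 per Mb against 64.8 over its chromosome. The chromosome 1 cluster had 54.5 against 71, each of these 2 from 3 peaks, and that of chromosome 2 had 67.1 against 69.5. How reads that fit several near-identical copies were counted is not given in the sources used here, so the values of alpha genes are uncertain.

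**Figure D3:**
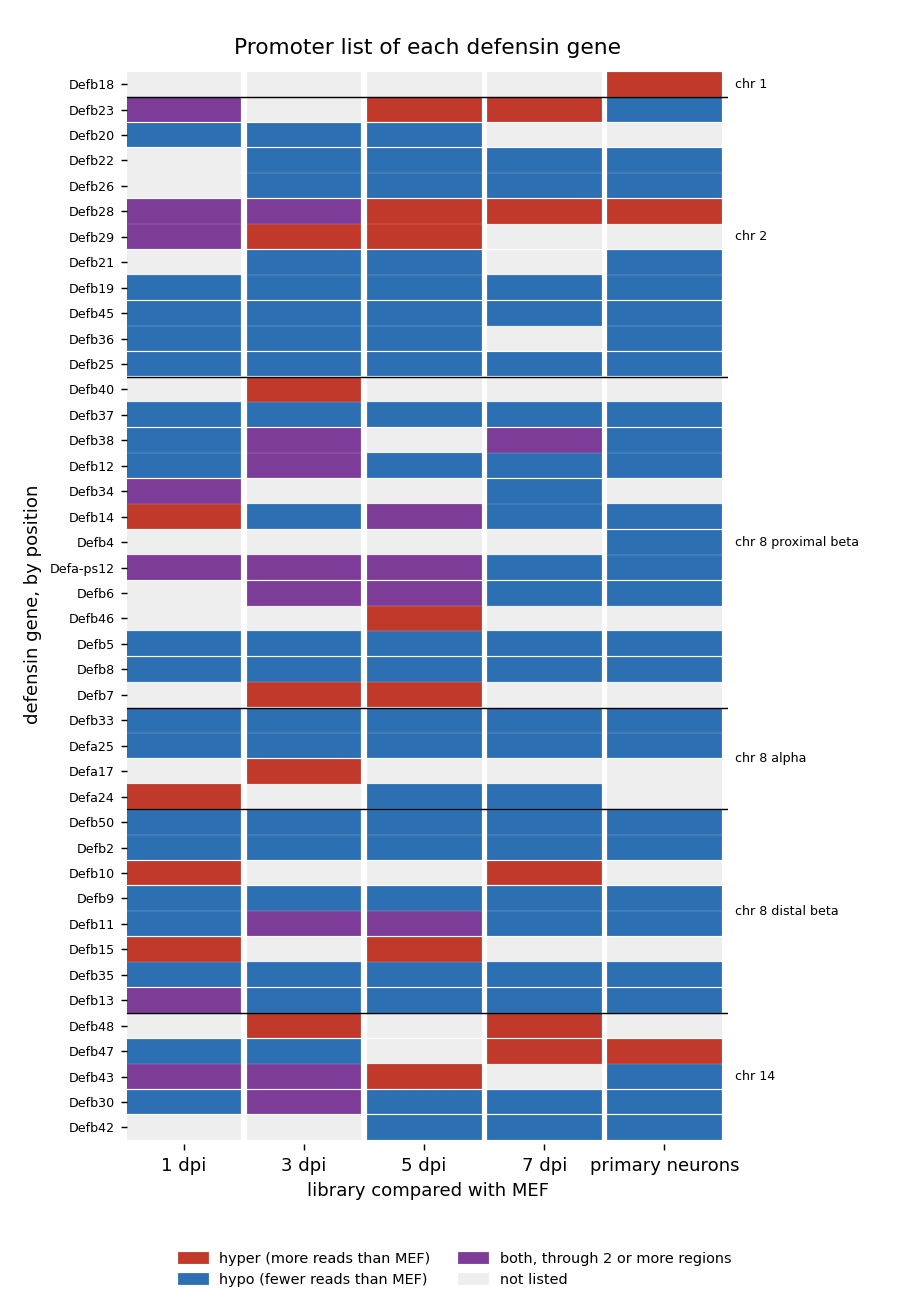
List of each of the 42 listed defensin genes (rows, by position) in each library against MEF (columns). Blue is hypo, red hyper, purple both and light grey not listed. Blue fills most of the distal beta cluster of chromosome 8, and the chromosome 2 gene Defb28 has a hyper region in every column.

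Defb28, a beta-defensin of the chromosome 2 cluster (TSS at chr2:152518254, plus strand), had the most reads of any hyper member. Upstream of its start, a region about 1.3 kb away had 12 reads at 1 dpi, against 0 in MEFs, and a region 804 bp away also had 12 against 0. An upstream region had 25 reads at 3 dpi against 1 in MEFs, 37 at 5 dpi against 0, and 59 at 7 dpi against 3. In primary neurons a region nearer the start, centred 834 bp upstream, had 9 reads against 0, and it shares no base with the region of 3 dpi. The regions differ in their edges, and that of 7 dpi was 1140 bp long against 580 bp at 5 dpi. Each over its own stretch, they had 56.8 reads per kb at 3 dpi, 63.8 at 5 dpi, 51.8 at 7 dpi and 32.1 in primary neurons. The scaled ratio over MEFs was 43.8-fold at 3 dpi (exact 95% Poisson interval, counting error only, 7.16 to 1796) and 34.4-fold at 7 dpi (11.2 to 172). With 0 MEF reads set to a floor of 3 reads, it was 21.6-fold at 5 dpi and 5.40-fold in primary neurons. The exact intervals there have no upper limit, and their lower limits were 16.7-fold at 5 dpi and 3.55-fold in primary neurons. Among hyper regions ordered by reads, those of Defb28 were number 84 of 3239 at 3 dpi, 48 of 5168 at 5 dpi and 24 of 2204 at 7 dpi.

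At the start site itself Defb28 was on the hypo list at 1 and 3 dpi. A hypo region there had 0 reads at 1 dpi, against 15 in MEFs, and likewise 0 against 15 at 3 dpi, on the printed window with its CpGs. Downstream, a hyper region centred 446 bp past the start had 9 reads against 0 in MEFs at both 3 and 5 dpi. The gene also carried the only defensin peaks of the induced neurons, at 5 dpi (chr2:152516864-152517343, fold enrichment 4.21 in the authors' list, 36 tags) and 7 dpi (chr2:152516670-152517440, 4.39, 32 tags).

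**Figure D4:**
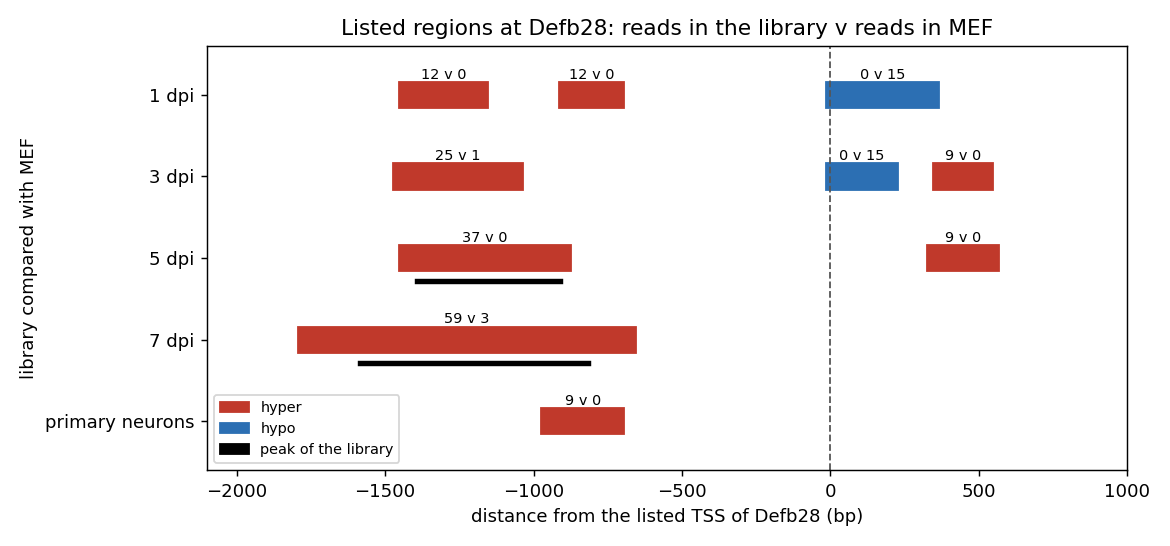
Listed regions at Defb28 by distance from the TSS (x axis, bp) for each library against MEF (rows). Labels give reads in the library v reads in MEF, and black bars are peaks of that library; upstream red regions are present in all rows, with blue regions at the start at 1 and 3 dpi.

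Other hyper regions were small. Without Defb28, they had at most 19 reads, and all 6 at 7 dpi and both in primary neurons had 0 MEF reads. Defb29, which neighbours Defb28, had 16 reads at 3 dpi against 1 in MEFs, and an overlapping region had 11 against 1 at 5 dpi. A separate region had 17 against 0 at 5 dpi, 9.92-fold at the floor of 3 reads (exact lower limit 7.22-fold). Defb6 had 19 against 0 at 5 dpi, 11.1-fold at that floor, over its start, beside a hypo region upstream with 3 reads against 32 in MEFs. Defa17 had 19 against 0 at 3 dpi, also 11.1-fold at the floor (exact lower limit 8.17-fold), 1.8 kb upstream. Defb43 on chromosome 14 had 12 against 1 at 1 dpi (21.3-fold, 3.16 to 912) and, at the same time, a hypo region with 2 against 34. In primary neurons the hyper genes were Defb47 (10 against 0), Defb18 (9 against 0) and Defb28.

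Hypo members held more reads in the higher library than hyper members, and so did all listed regions. Over all listed regions the medians were 23 to 24 reads for hypo and 10 to 11 for hyper. The smallest listed values were 15 MEF reads for hypo and 9 library reads for hyper. The number in MEFs was nearly constant because it is 1 library. Defb2, which mouse airway cells raise on contact with bacterial lipopolysaccharide, had a region 1.8 to 1.9 kb upstream with 9 reads at 1 dpi (59 in MEFs), 1 at 3 dpi (59), 3 at 5 dpi (75), 6 at 7 dpi (59) and 10 in primary neurons (75). The ratio was 14.3-fold lower at 5 dpi (4.70 to 70.8) and 4.17-fold lower in primary neurons (2.14 to 9.04); these intervals overlap. Defb30 on chromosome 14 had 0 reads at 1 dpi (61 in MEFs), 4 at 3 dpi (61), 2 at 5 dpi (41), 0 at 7 dpi (61) and 0 in primary neurons (41), and at 3 dpi it also had a hyper region elsewhere (11 against 0). Defb9 had 1 read against 60 in MEFs at 3 dpi, 34.3-fold lower (5.92 to 1376).

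Defb50 had 4 separate hypo regions across its promoter at 1, 3 and 5 dpi and in primary neurons, and 3 at 7 dpi. At its start the reads were 1, 0, 0, 0 and 0 in the 5 libraries, in the order of the time course and then primary neurons, against 36 in MEFs each time. Defb5 had 2, 5, 2, 1 and 3 reads in that order, against 45 in MEFs, 1.7 kb upstream. Defb35 had 1, 0, 3, 4 and 0, against 39. Defb11 had 0, 6, 2, 1 and 6, against 41. These are the hypo regions alone, and Defb11 also had hyper regions, with 9 reads at 3 dpi and 15 at 5 dpi against 0 in MEFs. Defa25, an alpha-defensin, had 0, 0, 2, 1 and 1 reads at its start, against 27 in MEFs. Defb14, counterpart of human beta-defensin 3 and a ligand of Ccr6, had 0 reads at 3, 5 and 7 dpi and in primary neurons, against 15 in MEFs, in its hypo region. Defb14 also had hyper regions elsewhere, with 9 reads at 1 dpi and 11 at 5 dpi against 0 in MEFs.

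**Figure D5:**
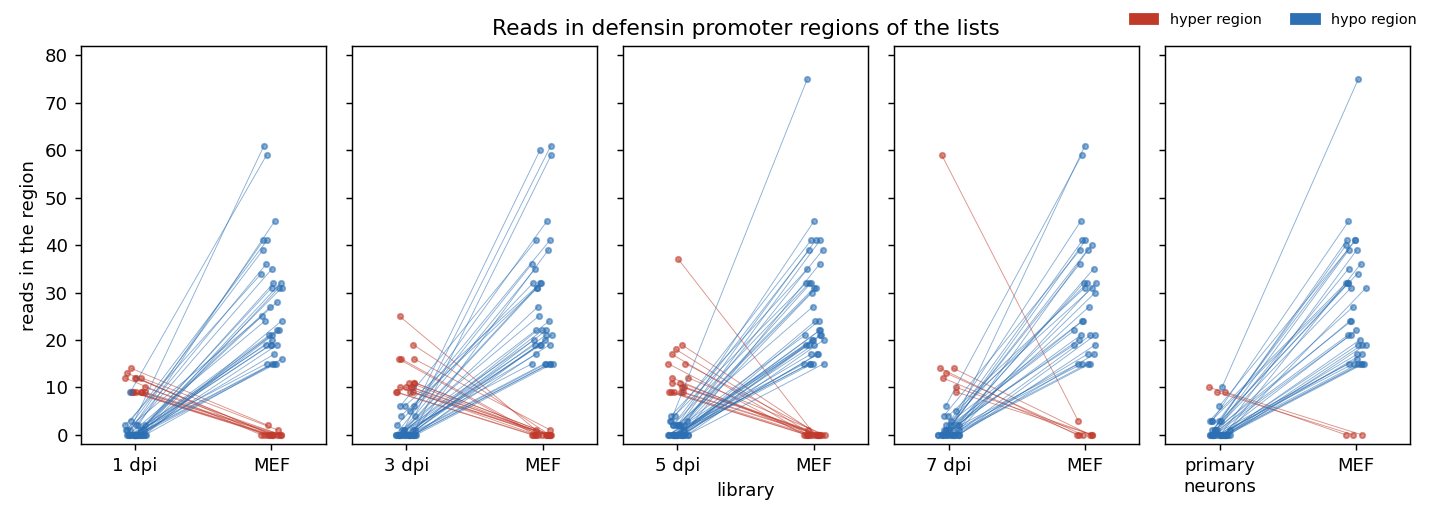
Reads (y axis) in each listed defensin region in the tested library (left of each panel) and in MEF (right); lines join the 2 values of a region, red hyper and blue hypo. Hypo regions have 15 to 75 MEF reads, and hyper regions 9 to 19 library reads save at Defb28 from 3 dpi to 7 dpi.

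Some genes had opposite calls on neighbouring stretches. Defa-ps12 had 41 MEF reads in a hypo region at its start, against which the libraries had 3, 6, 4, 1 and 3 reads in the order above, and hyper regions of 16 reads at 3 dpi and 18 at 5 dpi that began inside that region and had 0 MEF reads. Defb38 had 13 reads at 7 dpi in a hyper region (0 in MEFs), next to a hypo region with 0 reads at 7 dpi (32 in MEFs). Region edges are those of the authors' lists, and such calls describe short windows rather than a whole promoter.

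Peaks were assigned to 0 defensin genes at 1 dpi (0.805% of all genes had one), 0 at 3 dpi (3.86%), 1 at 5 dpi (3.4%), 1 at 7 dpi (4.7%), 1 in primary neurons (1.62%) and 43 in MEFs (75.3%). The lists differ greatly in length, from 262 peaks at 1 dpi to 1579 at 7 dpi, 549 in primary neurons and 176853 in MEFs, so the absence of peaks says little of a single gene. The MEF count of 43 leaves out older symbols. With these added, 50 of the 74 defensins had a MEF peak, 67.6% against 75.3% of all genes. The exact Clopper-Pearson interval of that share, 55.7% to 78%, contains the share of all genes. MEF peaks therefore give no result particular to the defensins by this count. The primary neuron peak was intergenic, 64.7 kb from Defb7 (fold enrichment 7.32, 40 tags). Of the 120 MEF peaks assigned to defensins, 14 were at promoters, 8 in gene bodies and 98 intergenic. The promoter share was 11.7% against 3.24% of all MEF peaks. The gene body share was 6.67% against 24.4%, and the intergenic share 81.7% against 72.4%. The median fold enrichment of the defensin peaks was 4.55, against 4.54 for all. The strongest at a promoter or gene body were at Defb2 (9.58), Defb9 (7.48), Defb30 (5.88), Defb5 (5.80) and Defa-ps12 (5.15). Defb41 has most of its peaks far upstream in intergenic DNA, also assigned to Gm15386, an older name of the same gene. Of the hypo defensin regions, 41.2%, 34.3%, 43.2%, 43.8% and 37.1% lay on a MEF peak in the order of the comparisons, against 46.3%, 49.7%, 49.8%, 49.2% and 48.3% of all hypo regions.

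A list of 30 other host defence genes gave 7, 8, 8, 3 and 1 hyper and 12, 14, 14, 12 and 10 hypo genes in the same order. Its hyper shares were 23.3%, 26.7%, 26.7%, 10% and 3.33%, against 11.7%, 10.9%, 16.9%, 7.45% and 7.41% of all genes. Its hypo shares were 40%, 46.7%, 46.7%, 40% and 33.3%, against 36.6%, 34.2%, 34%, 34.2% and 34.7%. Ccr6, the chemokine receptor that some beta-defensins bind, had 2, 4, 4, 4 and 3 reads in a region just downstream of a start, against 30 in MEFs, and hyper regions of 9 to 13 reads at 1, 3, 5 and 7 dpi, against 0 in MEFs. Mmp7, the protease that activates mouse pro-alpha-defensins in Paneth cells, was hypo in all 5 comparisons. Its hypo region had 1, 2, 0 and 0 reads at 1, 3, 5 and 7 dpi against 27 in MEFs, and 0 against 16 in primary neurons. At 1 dpi it also had a hyper region elsewhere (12 against 0). Camp, the cathelicidin gene, was hypo at 5 and 7 dpi (0 against 16 each) and hyper in primary neurons (9 against 0) at another region. Spag11b, a beta-defensin-like epididymal gene inside the proximal chromosome 8 cluster, had 0, 1, 1, 1 and 2 reads against 23 in MEFs.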

How the data were processed

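Of 8 samples, 6 hMeDIP libraries had processed files and 2 inputs had none of their own here. CASAVA, Bowtie2 2.1.0 and the mm10 build are named per the submitters' processing notes. The callers of peaks and of differences, and all settings, are not given in the sources used here. At 3, 5 and 7 dpi the labels name the primary neuron code for a hyper list, and the file headers were followed.

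The promoter signal that the authors deposited as a count was whole reads times 1 factor per library and comparison: division gave whole numbers within 0.1 for 100% of values. The authors' p-values and q-values compare 2 libraries, not conditions, and were used only through list membership. Peak fold enrichment is a ratio deposited by the authors, tags are whole counts that they deposited, and their column of q was read as −log10. Total depth is unknown.

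A fold against 0 reads uses a floor of 3 reads per library. Intervals at 95% are exact Poisson or Clopper-Pearson. Overlap meant at least 1 bp. Coordinates are 1-based, mm10. Named genes were the 5 largest folds per list, the 5 regions with most reads, members with peaks outside MEFs, the 5 strongest MEF promoter or gene body peaks, up to 5 members per comparison in opposite lists, and the first of each family by name with a sequence; Gm14851, Gm15315, Gm15386 and the host defence genes given with values were chosen after their values were seen. The members and lists were chosen with earlier results of these data known. Alternatives covered the q limit, reads, distance, recentring, floor, copies and peak strength. The interval and whole-read steps were tested on simulated data. Tools were scipy 1.17.1, pandas 2.3.3, matplotlib 3.10.9 and numpy 2.4.6 in Python 3.11.15.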

Additional observations from a re-analysis of the deposited data

Results flagged for a closer look

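5 genes had a hyper region in one library and a hypo region in another that share bases, both called against the MEF library. The difference between the libraries was not tested in any of them. In each pair MEFs had 0 reads in the hyper region by the authors' counts. At Defa-ps12, however, the shared bases lie on a MEF peak (chr8:19210312-19210791, 41 tags). How a read was assigned to a region is not given in the sources used here. Neither call therefore shows which library had more reads on the shared bases. At Defa-ps12 the hyper region of 5 dpi (18 reads against 0 in MEFs) shared 180 bp with the hypo region of 1 dpi (3 against 41). At Defb29, 120 bp were shared between 5 dpi (17 against 0) and 1 dpi (0 against 15). At Defb30, 80 bp were shared between 3 dpi (11 against 0) and 5 dpi (1 against 22). At Defb23, 60 bp were shared between 7 dpi (14 against 0) and 1 dpi (0 against 16). At Defb28, 40 bp were shared between 5 dpi (9 against 0) and 1 dpi (0 against 15). The 5 dpi hyper region of Defa-ps12 also shares 40 bp with a hypo region of 5 dpi itself. How many of all genes had such overlapping calls was not counted, so they cannot be called particular to the defensins.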

How the results depend on the processing

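No paired analysis was possible because each group had 1 library, and for the same reason no replicate could be left out. A q-value of at most 0.01, leaving out symbols with -rs or -ps, and adding older symbols (chosen after seeing the data) kept every count within 1.5 times. Leaving out regions listed for several genes could change nothing, because no defensin region was listed for another gene. Requiring 15 reads, before scaling, in the higher library left 0, 5, 6, 1 and 0 hyper genes at 1, 3, 5 and 7 dpi and in primary neurons. It could not lower the hypo counts, because every listed hypo region has at least 15 MEF reads. A read of a tested library counts for 1.75 to 1.80 MEF reads, so the limit is stricter for hyper regions. A region centre within 1000 bp of the TSS left 7 hyper genes at 1 dpi, 5 at 3 dpi, 2 at 7 dpi and 1 in primary neurons, and 13, 14, 14, 13 and 14 hypo genes. Recentring on the median log2 ratio of all listed regions, which ran from -2 to -1.78, with an absolute log2 of at least 1 left 12, 7, 9, 10 and 5 hypo genes. The hyper genes stayed at 11, 13, 11, 6 and 3. Most listed regions are hypo (12287 against 3415 hyper at 1 dpi), so this median is close to a typical hypo value. The step therefore lowers hypo counts by construction and cannot lower hyper counts. With a floor of 1 read in place of 3, the median fold of hyper regions became 16, 18.4, 19.2, 22.8 and 16.2, and that of hypo regions 11.8, 10.9, 10.9, 11 and 10.6. Genes with a peak became 0 at 5 dpi and 0 at 7 dpi with an enrichment of at least 5 or of at least 10; in primary neurons 0 with at least 10, 0 at promoters or gene bodies only and 0 within 10000 bp; and in MEFs 25 with at least 5, 0 with at least 10 and 18 at promoters or gene bodies. Low reads limit most hyper calls, and 9 reads against 0 was the smallest listed.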
